A study of Mus musculus with 9 samples.

Results

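The genes described here are 49 genes of the Wnt pathway among the 8251 genes that the arrays measured with a probe set of 1 gene symbol. They were chosen by symbol: every name that starts with Wnt, Fzd, Sfrp, Dkk, Dvl, Axin, Tcf7, Csnk1 or Tle, together with Lrp5, Lrp6, Frzb, Ctnnb1, Lef1 and Apc. Gsk3b and Wif1 were sought as well, but no probe set had either as its only gene symbol. The 49 genes comprised 14 ligands, 10 receptors, 7 secreted antagonists, 11 cytoplasmic proteins and 7 nuclear proteins, and the arrays carried 63 probe sets for them. Total RNA was taken from OB-6 cells, osteoblastic cells of a mouse line that comes from bone marrow, before parathyroid hormone (PTH) was added and after it had acted for 30 or 60 min. The 0 min group is the basal level, and each group had 3 arrays with the replicate letters a, b and c. The labels name no PTH dose or medium, and time-matched cultures without PTH were not analysed here, so treatment and time cannot be told apart. Whether the replicates were separate cultures is not labelled, so the p-values reflect only how far these arrays spread, and that spread may be technical.

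In the canonical branch, a secreted Wnt protein binds a Frizzled receptor together with the coreceptor Lrp5 or Lrp6, and Dishevelled (Dvl) passes the signal on inside the cell. Without a ligand, a complex of Axin, Apc, glycogen synthase kinase and casein kinase 1 marks β-catenin (Ctnnb1) for degradation, and with a ligand β-catenin accumulates and joins TCF and LEF factors on DNA, where it displaces the Tle corepressors. Secreted Sfrp and Dkk proteins act outside the cell, the Sfrp proteins on the ligands and most Dkk proteins on the coreceptors. In bone the pathway is known for driving osteoblast formation, and human LRP5 loss for low bone mass.

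Intensities lay on a linear scale between 0.1 and 8605 with a mean near 250 on every array once 2% of the probe sets at each end were removed. The array least like the others was 60 min replicate b, whose median correlation to them was 0.938, where the remaining 8 arrays had 0.954 to 0.967. Of 10 measured osteoblast markers, 8 were bright enough to test, among them Col1a1, Col1a2, Sparc and Alpl. At 60 min Col1a1 was called higher and Omd and Postn lower, where 4.35% of all tested probe sets were called higher and 8.73% lower. The Col1a1 call (limma adjusted p = 0.0499) came from arrays that overlapped the basal ones. The dimmer Col1a1 probe set differed by 0.08 on the log2 scale (limma adjusted p = 0.692). The PTH receptor Pth1r had 15.7 ± 8.81, 34.5 ± 6.88 and 23.5 ± 12.2 at 0, 30 and 60 min (SD, n = 3 arrays each) and lay below the intensity needed for testing on all 9 arrays, as did Phex. The 5 endothelial and 4 chondrocyte markers were also too dim to test, with summed intensities of 38.4 to 52.1, 45.7 to 80.7 and 86.8 to 107 for the endothelial list at 0, 30 and 60 min and of at most 56.2, 87.8 and 60.3 for the chondrocyte list. Summed intensities at the 3 times were 420 to 692, 647 to 750 and 465 to 825 for 6 adipocyte markers, of which 3 were bright enough to test. For 9 haematopoietic and osteoclast markers the sums were 932 to 1033, 959 to 1103 and 827 to 957. Of these 9, 5 were bright enough to test and the highest single value was 734. Those tested included Cd68, with means of 139, 129 and 117 at 0, 30 and 60 min, and Csf1r, with 83.0, 46.0 and 57.9. The haematopoietic gene Ptprc averaged 3.6 to 7.3 and was not tested. The 7 muscle markers summed to 215 to 320, 360 to 397 and 295 to 422, and 1 of them, the creatine kinase gene Ckm, rose at 60 min by 0.86 on the log2 scale (limma adjusted p = 0.0197). Their part in the results was not tested.

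A probe set was tested where at least 3 of the 9 arrays exceeded an intensity of 44.69, the 40th percentile of all values, and 39 of the 63 Wnt pathway probe sets passed, for 32 of the 49 genes. A probe set that passed through a group in which it was bright was more likely to differ, so the counts below cover the tested probe sets and not all members. Of the 24 probe sets left out, 21 exceeded that intensity on 0 arrays. Their genes with no tested probe set were Wnt2b, Wnt3a, Wnt4, Wnt6, Wnt7a, Wnt7b, Wnt8a, Wnt10b and Wnt11 among the ligands, Fzd6 and Lrp5 among the receptors, Dkk1, Dkk2, Frzb and Sfrp1 among the antagonists, and Dvl3 and Tle4 inside the cell. Low intensity does not show that a gene was silent, because brightness also depends on the probes, and for the same reason no probe set is ranked against another as a level of expression. Bulk RNA cannot tell fewer cells of a kind from less RNA per cell.

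**Figure D1:**
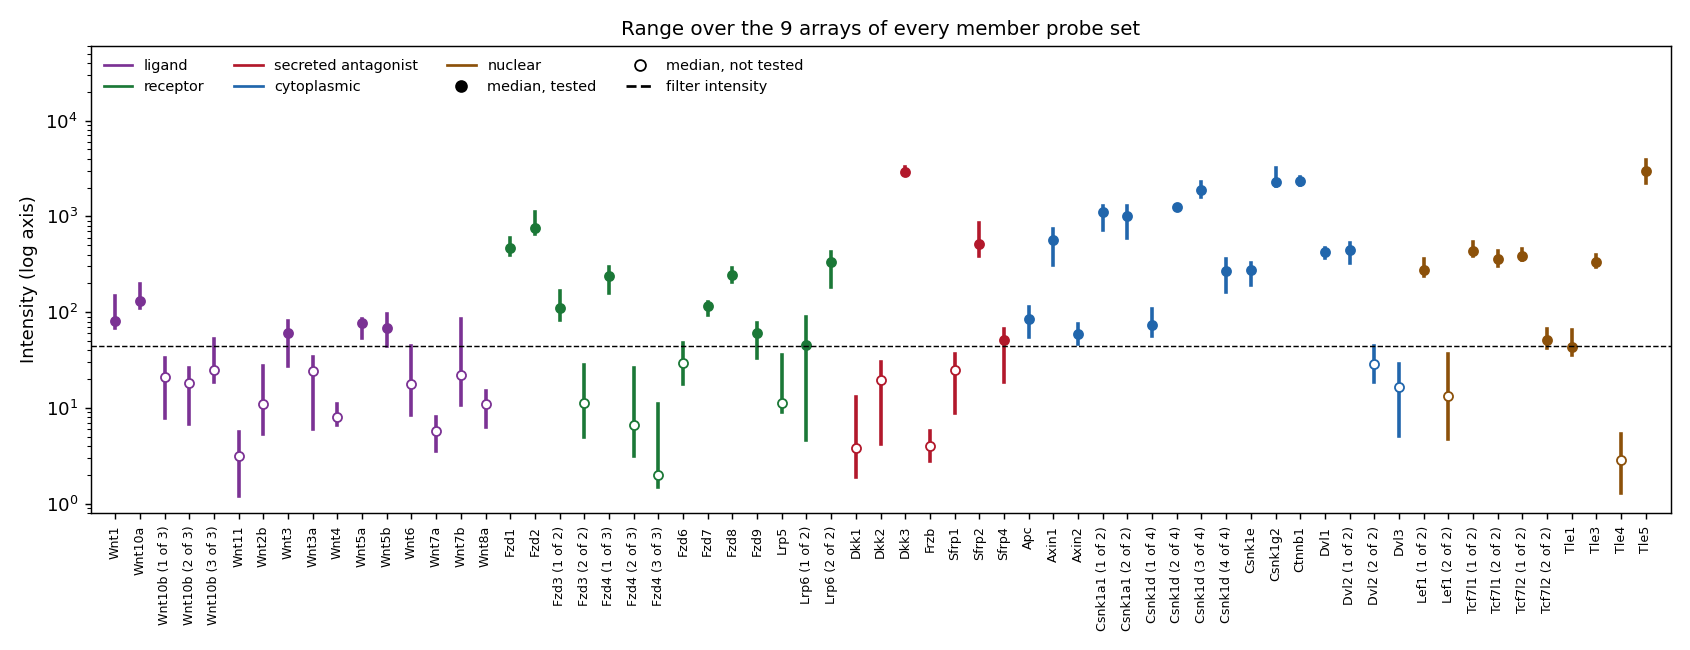
Median intensity (points, log axis) and range over the 9 arrays (lines) of all 63 Wnt pathway probe sets, coloured by role, with the dashed line at the intensity of 44.69 used for testing. Filled points mark the 39 probe sets tested and open points the 24 that were not, which include the only probe sets of Lrp5, Dkk1 and Sfrp1.

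Sfrp2 was lower at both times of PTH, Lrp6 was lower at 60 min by 1 of its 2 probe sets, and the casein kinase gene Csnk1g2 was higher at 60 min. No other member passed the threshold, an adjusted p under 0.05 in limma's moderated test with the Benjamini-Hochberg adjustment over all 7884 tested probe sets. At 30 min against 0 min, 0 of the 39 members were called higher and 1 was called lower (2.56%), where 0.482% of all tested probe sets were called higher and 0.457% lower. At 60 min against 0 min, 1 member was called higher (2.56%) and 2 lower (5.13%), where 4.35% of all probe sets were called higher and 8.73% lower. Between 60 and 30 min 0 members were called in either direction, with 4 of 39 at an unadjusted p under 0.05 (10.3%, against 9.07% of all tested probe sets), and the called shares over all probe sets were 0% higher and 0.0254% lower. The F test for any change over the 3 times called 1 member, Sfrp2 (2.56%), against 4.64% of all. At 60 min the shares of members called lay below those of all probe sets, and at 30 min the count was a single probe set.

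Members at an unadjusted p under 0.05 numbered 5 of 39 at 30 min (12.8%, against 17.9% of all probe sets) and 11 at 60 min (28.2%, against 32.8%). The median log2 difference over the 39 members was 0.03 at 30 min and 0.06 at 60 min, beside 0.05 and 0.03 over all tested probe sets. Differences here and below are on the scale log2(intensity + 11.8), where 11.8 is the 20th percentile of the table, and dim probe sets change less on it than in intensity. At 30 min 4 members had all 3 arrays above all 3 of 0 min (10.3%) and 7 had all 3 below (17.9%), where 15.3% of all tested probe sets lay wholly above and 15.3% wholly below. At 60 min 7 members lay wholly above (17.9%) and 7 wholly below (17.9%), beside 20% and 20.7% of all tested probe sets. All 4 of these member shares are close to or below the shares over the whole array.

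**Figure D2:**
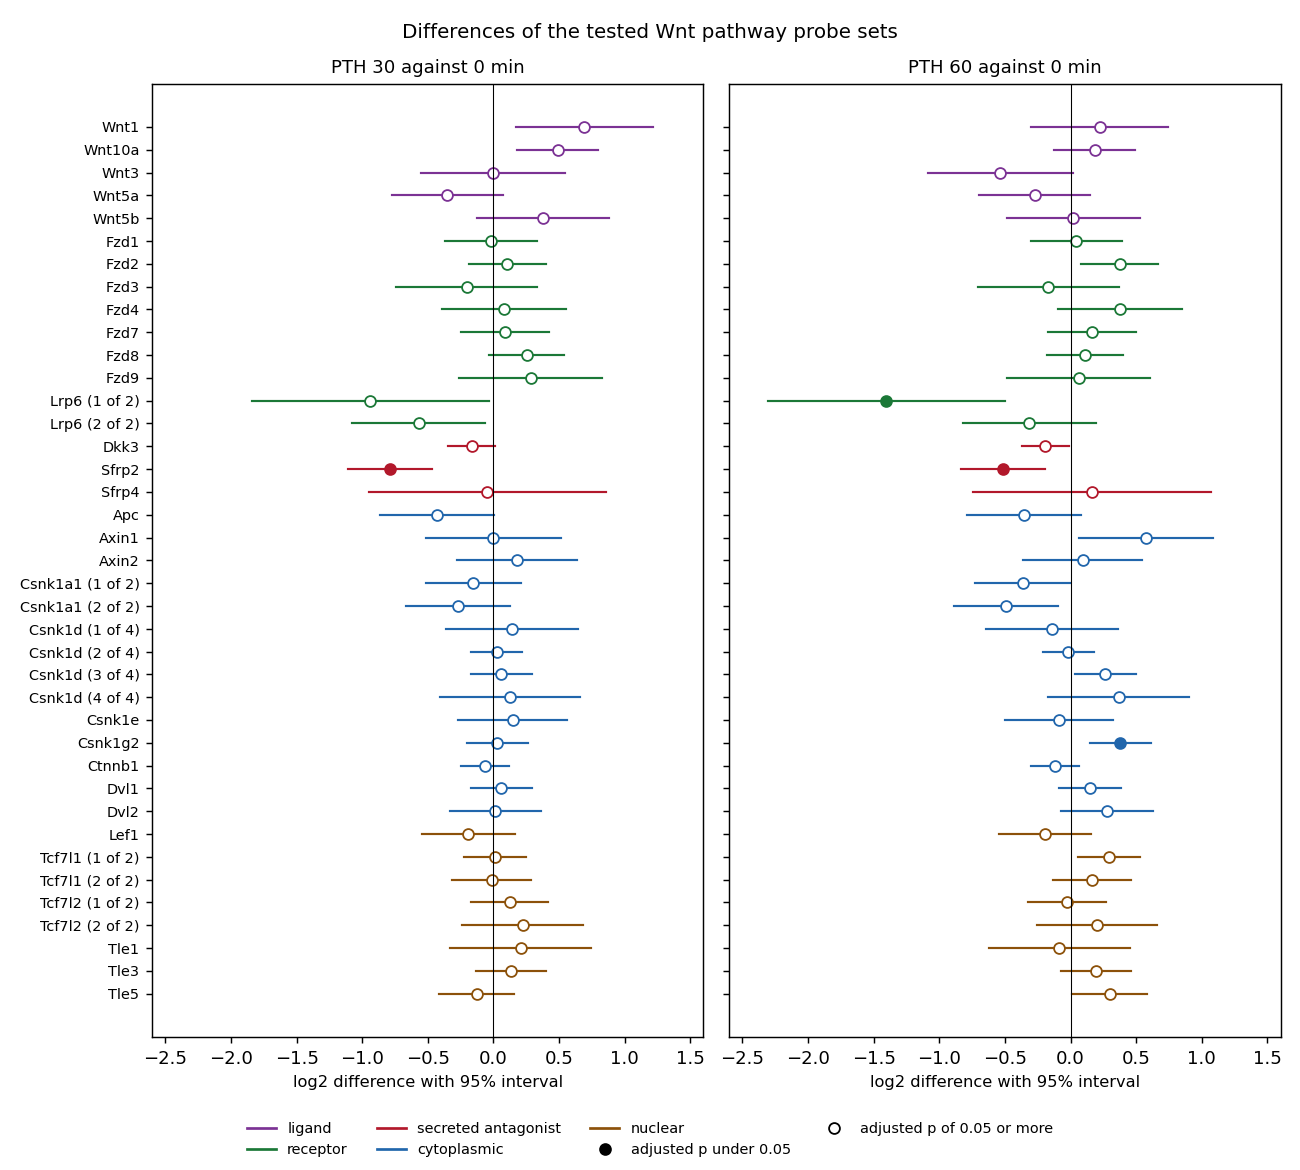
Log2 difference (points) with its 95% interval from the limma fit (lines) for the 39 tested Wnt pathway probe sets, PTH 30 against 0 min on the left and 60 against 0 min on the right, coloured by role. Filled points mark an adjusted p under 0.05: Sfrp2 at -0.79 and -0.51, Lrp6 at -1.40 and Csnk1g2 at 0.38.

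Among the ligands, 5 of 14 genes could be tested and none passed the threshold at either time, with 2 at an unadjusted p under 0.05 at 30 min and 0 at 60 min. Wnt1, a canonical ligand whose human mutations cause brittle bone, had intensities of 73.5, 80.4 and 81.7 at 0 min, 143, 116 and 146 at 30 min and 80.9, 147 and 67.8 at 60 min. All 3 arrays at 30 min lay above all 3 at 0 min, whereas at 60 min only replicate b was as high. The log2 difference at 30 min was 0.69 with a 95% interval of 0.17 to 1.22 (limma adjusted p = 0.170), and at 60 min it was 0.22 (limma adjusted p = 0.554). Wnt10a, another canonical ligand, had 112, 122 and 116 at 0 min, 158, 153 and 198 at 30 min and 130.1, 129.5 and 143 at 60 min. Its 3 times did not overlap, with 30 min highest and 0 min lowest, and the log2 differences were 0.49 at 30 min (limma adjusted p = 0.119) and 0.18 at 60 min (limma adjusted p = 0.398). Wnt5b, which acts mostly outside the β-catenin branch, had 67.1, 67.9 and 61.0 at 0 min, 80.6, 90.6 and 94.6 at 30 min and 67.3, 96.0 and 44.4 at 60 min. Its 30 min arrays lay above all 0 min arrays by 0.38 on the log2 scale (limma adjusted p = 0.404), and its 60 min arrays spanned both groups.

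Wnt5a, the best known ligand of the planar polarity and calcium branches, had 83.2, 83.6 and 84.5 at 0 min, 53.3, 61.3 and 76.7 at 30 min and 78.7, 71.9 and 53.8 at 60 min. All 6 PTH arrays lay below the 3 basal arrays, with differences of -0.35 and -0.27 at 30 and 60 min that did not pass (limma adjusted p = 0.361 and 0.358). Wnt3 had 58.5, 81.6 and 62.3 at 0 min, 60.4, 61.8 and 79.0 at 30 min and 46.0, 59.1 and 27.3 at 60 min, a difference of -0.53 at 60 min (limma adjusted p = 0.164) with 1 array overlapping the basal group. At 30 min the ligands' median log2 difference was 0.38, the highest of the 5 roles, over only 5 probe sets of which none was called. Of these, 3 were wholly above and 1 wholly below the basal arrays, where 15.3% of all tested probe sets lay wholly above and 15.3% wholly below. The 11 untested ligand probe sets, of 9 genes, lay between 1.2 and 84.6, and the top value was 1 reading of Wnt7b on 60 min replicate b whose other 2 arrays at that time had 22.1 and 43.5.

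Among the receptors, Lrp6 was the only gene with a called probe set. Lrp6, the coreceptor that Frizzled-bound Wnt proteins engage and that becomes phosphorylated on its cytoplasmic tail, (Entrez gene 16974) was measured by 2 probe sets. The dimmer had 82.6, 88.9 and 72.0 at 0 min, 45.4, 34.3 and 31.2 at 30 min and 49.9, 4.6 and 30.7 at 60 min. All 6 PTH arrays were lower than the 3 basal arrays, and the lowest reading by far was that of 60 min replicate b, the array that stood apart. Only 5 of the 9 arrays exceeded the intensity for testing, the 3 basal ones and replicate a at each later time. This probe set was therefore tested mainly because its basal arrays were bright, and its call is made against those same arrays. The log2 difference was -0.94 at 30 min (95% interval -1.84 to -0.03, limma adjusted p = 0.261) and -1.40 at 60 min (-2.31 to -0.50, limma adjusted p = 0.0472). Without 60 min replicate b the difference at 60 min was -0.86 (limma adjusted p = 0.0703), and on all arrays the call also ended after quantile normalization (0.0603) and cyclic loess (0.0599).

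The brighter Lrp6 probe set had 404, 360.3 and 409 at 0 min, 334, 184 and 282 at 30 min and 428, 283 and 249 at 60 min. Its 30 min arrays were all below the basal arrays, by 0.57 on the log2 scale (limma adjusted p = 0.229), but at 60 min replicate a was the highest of all 9. The difference at 60 min was -0.32 (95% interval -0.82 to 0.19, limma adjusted p = 0.375), so the probe sets shared a sign at both times and differed by 1.09 in size at 60 min. With 1 probe set called and the other not, the call of Lrp6 rests on the dimmer probe set alone. When single arrays were left out, that call was kept only without 60 min replicate a (limma adjusted p = 0.0149).

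Of the Frizzled receptors, 7 genes were tested by 1 probe set each and none passed at either time, Fzd2 at 60 min being the only 1 at an unadjusted p under 0.05. Fzd2 had 708, 649 and 742 at 0 min, 724, 748 and 789 at 30 min and 800.1, 1116 and 840.4 at 60 min. Every 60 min array lay above every earlier one, replicate b the highest, and the difference from 0 min was 0.37 with a 95% interval of 0.08 to 0.67 (limma adjusted p = 0.0846). Fzd1 had 438, 523 and 427 at 0 min, 482, 478 and 409.9 at 30 min and 595, 463 and 391 at 60 min, with overlap at all times and differences of -0.02 and 0.05 from 0 min. Fzd4, the Frizzled that also binds the unrelated ligand norrin, had 159, 191 and 247 at 0 min, 293, 186 and 164 at 30 min and 282, 253 and 240.0 at 60 min, a difference of 0.37 at 60 min (limma adjusted p = 0.254) with overlapping groups. Fzd9 had 33.5, 65.1 and 60.7 at 0 min, 76.7, 65.5 and 54.8 at 30 min and 63.9, 45.9 and 53.9 at 60 min, with a difference of 0.28 at 30 min (limma adjusted p = 0.551). Fzd3, Fzd7 and Fzd8 had differences between -0.20 and 0.25 at the 2 times, each with overlapping groups. The other probe sets of Fzd3 and Fzd4, together with Fzd6 and Lrp5, lay between 1.5 and 47.9 and were not tested. For Lrp5, the coreceptor tied to human bone mass, intensities were 10.6, 9.2 and 35.6 at 0 min, 12.9, 9.5 and 25.9 at 30 min and 11.2, 11.2 and 10.3 at 60 min.

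**Figure D3:**
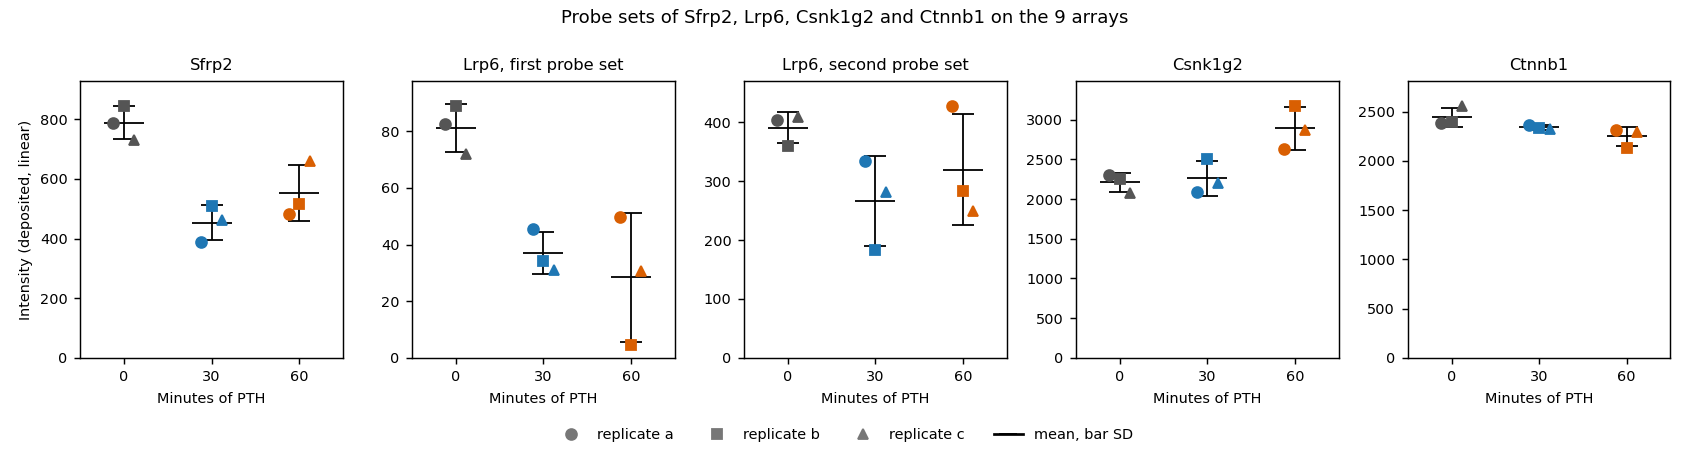
Deposited intensity (linear axis from 0) on each of the 9 arrays for Sfrp2, both Lrp6 probe sets (the first is the dimmer), Csnk1g2 and Ctnnb1, by minutes of PTH, with the mean and SD of 3 arrays. Sfrp2 and the first Lrp6 probe set lie below their basal arrays at 30 and 60 min, Csnk1g2 lies above them at 60 min, and the Ctnnb1 means stay between 2250 and 2445.

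Sfrp2, a secreted protein with a Frizzled-like domain that binds Wnt proteins, was the only member called at both times. Its probe set (Entrez gene 20319) had 789, 844 and 732 at 0 min, 389, 508 and 463 at 30 min and 483, 517 and 658 at 60 min. All 6 PTH arrays were lower than the 3 basal arrays, and the 30 and 60 min arrays overlapped. Means were 788 ± 55.9, 454 ± 59.9 and 553 ± 93.0 (SD, n = 3 arrays each). The fall at 30 min was to 0.579 of the basal value, a log2 difference of -0.79 (SE 0.14, limma adjusted p = 0.0379), and at 60 min it was to 0.701, a difference of -0.51 (SE 0.14, limma adjusted p = 0.0426). The difference between 60 and 30 min, 0.27 with a 95% interval of -0.04 to 0.59, did not pass (limma adjusted p = 0.572), and the F test over all 3 times gave an adjusted p of 0.0325. Both calls were lost when any single basal array was left out, with adjusted p between 0.0963 and 0.194 at 30 min and between 0.0856 and 0.142 at 60 min. The call at 30 min was also lost without 30 min replicates b (0.0730) or c (0.138), and that at 60 min without 30 min replicate c (0.0649) or 60 min replicates a (0.0832) or b (0.0965), and after scaling to the 75th percentile (0.0677), all as limma adjusted p.

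The promoter window of Sfrp2, 250 bases before to 50 after its annotated start, is shown because Sfrp2 is the member with the most calls. It lies at chr3:83766071-83766370 on the plus strand of mouse GRCm38.p6 and was taken from RefSeq, as were all windows here. It held none of the 3 motifs searched on both strands, which were the TCF and LEF core, CTTTG followed by A or T and again by A or T, the short cAMP response element TGACG and the full element TGACGTCA, which contains the short one.
Sfrp2: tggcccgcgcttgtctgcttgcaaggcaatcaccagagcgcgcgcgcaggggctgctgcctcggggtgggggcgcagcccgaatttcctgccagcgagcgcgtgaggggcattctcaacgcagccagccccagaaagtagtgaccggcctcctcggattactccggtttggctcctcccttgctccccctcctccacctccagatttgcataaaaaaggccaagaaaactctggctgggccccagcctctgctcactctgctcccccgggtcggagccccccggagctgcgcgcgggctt

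Dkk3, a divergent member of the Dickkopf family, had 3132, 3223 and 3293 at 0 min, 2955, 2805 and 2831 at 30 min and 2916, 2684 and 2845 at 60 min. All 6 PTH arrays lay below the 3 basal arrays, by a small margin, and the SDs within a time were 80.1 to 119. The differences were -0.17 at 30 min (95% interval -0.34 to 0.01, limma adjusted p = 0.307) and -0.19 at 60 min (-0.37 to -0.02, limma adjusted p = 0.126). After quantile normalization the 60 min difference was -0.35 (limma adjusted p = 0.0227) and after cyclic loess -0.38 (limma adjusted p = 0.0251). Dkk3 was thus called lower under those scalings and not in the reported fit of the deposited values. With array weights the deposited values gave -0.18 at 30 min (limma adjusted p = 0.0278) and -0.17 at 60 min (limma adjusted p = 0.0387), both called. That fit called 30.2% and 31.7% of all tested probe sets at these times. Sfrp4, a relative of Sfrp2, had 18.6, 55.3 and 56.3 at 0 min, 46.9, 50.9 and 22.4 at 30 min and 24.5, 66.8 and 56.6 at 60 min, spreading over the same range at every time. Dkk1, the antagonist that binds Lrp6, was dim on all arrays, with 3.8, 1.9 and 1.9 at 0 min, 5.1, 10.9 and 12.6 at 30 min and 2.7, 13 and 2.6 at 60 min. Dkk2, Frzb and Sfrp1 lay between 2.8 and 36.5 on all 9 arrays and were not tested either.

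Among the cytoplasmic members, Csnk1g2 was the only 1 of 14 tested probe sets called. Csnk1g2 encodes a membrane-anchored casein kinase 1 of the gamma group, a group known from frog and human cells to phosphorylate Lrp6. Its probe set (Entrez gene 103236) had 2306, 2254 and 2079 at 0 min, 2084, 2502 and 2198 at 30 min and 2632, 3172 and 2868 at 60 min. The 60 min arrays were the 3 highest of the 9, while 30 and 0 min overlapped. Means were 2213 ± 118, 2261 ± 216 and 2891 ± 270.4 (SD, n = 3 arrays each), and the difference at 60 min was 0.38 (SE 0.11, limma adjusted p = 0.0403), a 1.30-fold rise. At 30 min it was 0.03 (limma adjusted p = 0.907), and the difference between 60 and 30 min, 0.35 with a 95% interval of 0.12 to 0.59, did not pass (limma adjusted p = 0.526). The call at 60 min was lost after quantile normalization (0.24, limma adjusted p = 0.0757) and cyclic loess (0.21, limma adjusted p = 0.123), which lowered the difference by over 1.5 times. It was lost as well without any single basal array (limma adjusted p = 0.105 to 0.128) and without 30 min replicate c (0.0623) or 60 min replicates b (0.0888) or c (0.0813).

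The promoter table held 2 starts for Csnk1g2, at chr10:80622530-80622829 and chr10:80629406-80629705 on the plus strand of GRCm38.p6. They are shown with the window of Dvl1 at chr4:155847152-155847451, also on the plus strand, because these 2 genes held the only full cAMP response elements among the 44 member promoters of 31 genes (4.55%, against 1.79% of all 32851 promoters in the table). Capitals mark the short element in the upstream Csnk1g2 window and the full element in the other windows. The short element occurred in 12 member promoters (27.3%, against 20.8% of all) and the TCF and LEF core in 7 (15.9%, against 16.9%), those of Dkk1, Fzd7, Lef1, Tcf7l2, Wnt3, Wnt5b and Wnt11. A match is a run of letters and not a shown binding site.
Csnk1g2, upstream start: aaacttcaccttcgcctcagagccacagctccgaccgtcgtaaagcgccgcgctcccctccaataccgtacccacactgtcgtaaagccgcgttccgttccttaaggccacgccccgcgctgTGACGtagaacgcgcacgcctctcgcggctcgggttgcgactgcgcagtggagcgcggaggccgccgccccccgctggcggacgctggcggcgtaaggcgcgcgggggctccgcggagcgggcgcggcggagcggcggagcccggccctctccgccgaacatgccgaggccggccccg
Csnk1g2, downstream start: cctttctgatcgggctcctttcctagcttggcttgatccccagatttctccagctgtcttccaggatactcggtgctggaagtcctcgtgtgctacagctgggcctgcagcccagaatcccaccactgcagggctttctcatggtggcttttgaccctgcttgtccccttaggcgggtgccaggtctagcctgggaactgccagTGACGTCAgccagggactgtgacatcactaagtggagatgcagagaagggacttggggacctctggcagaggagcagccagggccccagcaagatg
Dvl1: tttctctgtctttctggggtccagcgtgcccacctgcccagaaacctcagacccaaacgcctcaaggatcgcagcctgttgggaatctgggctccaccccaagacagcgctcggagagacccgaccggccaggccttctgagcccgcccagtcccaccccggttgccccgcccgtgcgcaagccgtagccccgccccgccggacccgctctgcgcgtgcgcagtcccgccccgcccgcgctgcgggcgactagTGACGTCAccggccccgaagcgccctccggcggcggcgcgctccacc

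Dvl1, a Dishevelled protein, had 406, 423 and 366 at 0 min, 416, 407 and 423 at 30 min and 427, 431 and 467 at 60 min. The 60 min arrays lay above all others with a difference of 0.15 from 0 min with a 95% interval of -0.09 to 0.38 (limma adjusted p = 0.374). For Dvl2, the brighter probe set differed by 0.02 at 30 min and 0.27 at 60 min with overlapping groups (limma adjusted p = 0.967 and 0.260), and the first of these changed sign after cyclic loess. The dimmer Dvl2 probe set had 43.1, 42.5 and 44.4 at 0 min, 28.5, 24.2 and 35.8 at 30 min and 21.6, 18.5 and 22.7 at 60 min. Its 3 times did not overlap and fell in order of time, but no array exceeded the intensity for testing, so it has no test. Dvl3 lay between 5.1 and 29.1 and was not tested.

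Axin1, a scaffold of the complex that marks β-catenin for degradation, had 568, 459 and 358 at 0 min, 505, 598 and 308 at 30 min and 730.1, 708 and 614 at 60 min. The 60 min arrays were the 3 highest, and replicates within the earlier times spread widely. The difference at 60 min was 0.58 with a 95% interval of 0.07 to 1.09 (limma adjusted p = 0.115), and at 30 min 0.00, with a sign that depended on the scaling. Axin2, a scaffold that is itself a β-catenin target in many tissues, had 46.8, 61.1 and 57.1 at 0 min, 59.2, 75 and 57.4 at 30 min and 46.6, 64.2 and 68.6 at 60 min, with overlap throughout. Its differences were 0.18 at 30 min (95% interval -0.28 to 0.63, limma adjusted p = 0.656) and 0.09 at 60 min (-0.36 to 0.55, limma adjusted p = 0.796). Apc, the other scaffold, had 113, 92.5 and 87.2 at 0 min, 87.9, 55.2 and 67.2 at 30 min and 84.0, 71.5 and 65.3 at 60 min. Its 60 min arrays lay below all basal arrays by 0.36 on the log2 scale (limma adjusted p = 0.237), and at 30 min 1 array overlapped them (difference -0.43, limma adjusted p = 0.282).

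Csnk1a1, the casein kinase that primes β-catenin for degradation, was measured by 2 bright probe sets. The first had 1283, 1165 and 1089 at 0 min, 966, 959 and 999 at 30 min and 1081, 598 and 893 at 60 min. The second had 1218, 1295 and 1080.1 at 0 min, 1146, 956 and 1124 at 30 min and 1175, 726 and 929 at 60 min. In both, 60 min replicate b was the lowest array, and the differences at 60 min were -0.49 and -0.36 (limma adjusted p = 0.0902 and 0.150), neither past the threshold. Ctnnb1 itself, β-catenin, had 2385, 2394 and 2557 at 0 min, 2367, 2331 and 2322 at 30 min and 2319, 2136 and 2295 at 60 min. All arrays of each later time lay below those before it, but the differences were only -0.06 at 30 min (95% interval -0.25 to 0.12, limma adjusted p = 0.703) and -0.12 at 60 min (-0.30 to 0.06, limma adjusted p = 0.346). Csnk1d and Csnk1e encode kinases that act on Dishevelled. The 4 Csnk1d probe sets differed by 0.03 to 0.14 at 30 min and by -0.14 to 0.37 at 60 min, disagreeing in sign at 60 min, and only the brightest lay wholly above the basal arrays there (0.27, limma adjusted p = 0.110). For 3 of the 4, the probe set suffix marks probes that may match other transcripts as well. Csnk1e differed by 0.15 and -0.09, with overlapping groups.

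No nuclear member passed the threshold, with 0 of 8 probe sets at an unadjusted p under 0.05 at 30 min and 2 at 60 min. Tle5, a short Groucho-family protein without the repeats of the other Tle corepressors, had 2784, 2988 and 2723 at 0 min, 2226, 2978 and 2610.3 at 30 min and 2979.8, 3867 and 3669 at 60 min. The 60 min arrays lay above all those of 30 min and overlapped the basal arrays by 1 array. The differences were 0.30 for 60 against 0 min (95% interval 0.01 to 0.58, limma adjusted p = 0.136) and 0.43 for 60 against 30 min (limma adjusted p = 0.526). Tcf7l1, a TCF factor that mostly represses in mouse cells, had 2 probe sets. The brighter had 432, 385 and 423 at 0 min, 398, 436 and 416 at 30 min and 502, 545 and 483 at 60 min, and the dimmer had 388, 319 and 334 at 0 min, 387, 307 and 338 at 30 min and 368, 439 and 363 at 60 min. Only the brighter had 60 min arrays wholly above the rest, by 0.29 (limma adjusted p = 0.0903), against 0.16 for the other (limma adjusted p = 0.443).

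Tcf7l2, the TCF factor best known from the gut and pancreas, had 369, 407 and 389 at 0 min, 448, 368 and 461 at 30 min and 353, 443 and 351 at 60 min by its brighter probe set. By the dimmer it had 45.5, 42.1 and 51.1 at 0 min, 56.5, 47.3 and 64.5 at 30 min and 53.2, 66.8 and 46.0 at 60 min. The groups overlapped in both, with differences between -0.03 and 0.22. Lef1, a TCF relative that β-catenin often induces, had 276, 319 and 358 at 0 min, 332, 242 and 259.9 at 30 min and 239, 313 and 276 at 60 min, with overlap and a difference of -0.19 at each time (limma adjusted p = 0.536 and 0.435). Its second probe set lay between 4.7 and 36.9 and was not tested. The corepressor gene Tle1 had 35.9, 52.1 and 43.2 at 0 min, 37.0, 56.7 and 65.2 at 30 min and 37.4, 46.6 and 37.0 at 60 min, and its groups overlapped. Tle3 differed by 0.13 and 0.19 (limma adjusted p = 0.571 and 0.296), with all 30 min arrays above the basal ones, and Tle4 lay between 1.3 and 5.4.

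**Figure D4:**
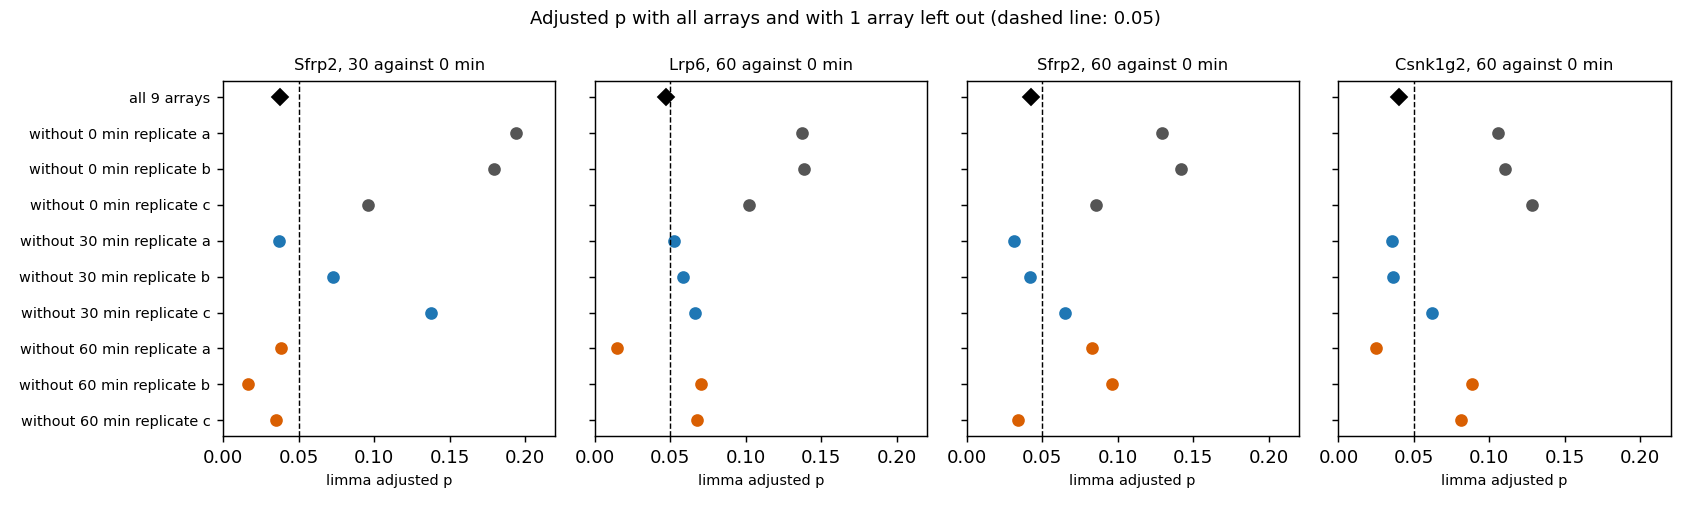
Limma adjusted p of the 4 member calls with all 9 arrays (diamonds) and with 1 array left out (circles, by time), with the dashed line at 0.05. Leaving out any single basal array moved all 4 above the line, and Lrp6 was below it in 1 of 9 such fits, Sfrp2 in 4 of 9 at 30 min and 3 of 9 at 60 min, and Csnk1g2 in 3 of 9.

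Genes that act around the 49 members were followed by lists, each gene by its brightest probe set. The counts in every list stand beside these shares of all tested probe sets. At 30 min 0.482% were called higher and 0.457% lower, and 17.9% had an unadjusted p under 0.05. At 60 min 4.35% were called higher and 8.73% lower. No list was tested against these shares. Of 11 measured genes for Wnt secretion, agonists and receptor regulators, 7 were tested, 0 were called at 30 min (1 at an unadjusted p under 0.05) and 1 was called lower at 60 min. The median log2 difference of the tested genes was -0.16 at 30 min and -0.01 at 60 min, beside 0.05 and 0.03 over all tested probe sets. Wls, the carrier that takes every Wnt protein to the cell surface, had 1689, 1756 and 1466 at 0 min, 1289.9, 1071 and 1217 at 30 min and 1209, 1055 and 1149.7 at 60 min. All 6 PTH arrays lay below the basal arrays, by 0.52 on the log2 scale at 60 min (SE 0.11, limma adjusted p = 0.0197) and by 0.45 at 30 min, short of the threshold (limma adjusted p = 0.0826). The call was lost without 0 min replicates a (0.0867) or b (0.0880). Rspo2, a secreted agonist, averaged 788 ± 128, 640.5 ± 90.3 and 704 ± 198 at 0, 30 and 60 min (SD, n = 3 arrays each) with overlapping groups.

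Of 28 measured β-catenin regulators and cofactors, 26 were tested, 0 were called at 30 min (3 at an unadjusted p under 0.05), and at 60 min 2 were called higher and 0 lower. Their median difference was -0.01 at 30 min and -0.05 at 60 min. Gsk3a, one of the glycogen synthase kinase pair of the degradation complex, had 1602, 1732 and 1636 at 0 min, 2057, 2072 and 2139 at 30 min and 2064, 2432 and 2068 at 60 min, all 6 PTH arrays above the basal arrays. The difference was 0.33 at 30 min (limma adjusted p = 0.122) and 0.40 at 60 min (SE 0.10, limma adjusted p = 0.0262), and that at 60 min was 0.24 after cyclic loess (limma adjusted p = 0.0789). Ruvbl2, a helicase-like protein that binds β-catenin, had 223, 274 and 275 at 0 min, 387, 328 and 322 at 30 min and 375, 549.9 and 358 at 60 min, a difference of 0.69 at 60 min (SE 0.17, limma adjusted p = 0.0298). Both calls were lost without any single basal array (limma adjusted p = 0.0723 to 0.118), and that of Ruvbl2 also without 60 min replicate b (0.0564).

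Of 22 measured genes of the planar polarity and calcium branch, 18 were tested, 0 were called at 30 min (3 at an unadjusted p under 0.05), and at 60 min 0 were called higher and 3 lower. Their median difference was 0.02 at 30 min and -0.21 at 60 min. Plcb1 entered this count by its brightest probe set, which differed by 0.15 at 60 min with overlapping groups (limma adjusted p = 0.565). Dimmer Plcb1 probe sets differed by -1.32 and -0.76 at 60 min (limma adjusted p = 0.0205 and 0.0403) and are not in the count. They exceeded the intensity for testing on 8 and 5 of the 9 arrays. Ppp3ca, the catalytic subunit of calcineurin, had 944, 927 and 912 at 0 min, 599, 484 and 574 at 30 min and 565, 381 and 598 at 60 min. All 6 PTH arrays were far below the basal arrays, whose SD was 15.8, and the difference was -0.74 at 30 min (limma adjusted p = 0.0672) and -0.86 at 60 min (SE 0.16, limma adjusted p = 0.0132). Nfatc3, a transcription factor that calcineurin activates, had 244, 236 and 283 at 0 min, 223, 180.1 and 200.2 at 30 min and 198, 137 and 184 at 60 min, a difference of -0.54 at 60 min (SE 0.16, limma adjusted p = 0.0472). Rock1, a kinase that acts on the actin cytoskeleton, had 114, 97.7 and 77.5 at 0 min, 79.9, 33.3 and 40.8 at 30 min and 44.0, 30.9 and 32.2 at 60 min, and fell by 1.19 on the log2 scale at 60 min (SE 0.28, limma adjusted p = 0.0250). Only 4 of the 9 arrays exceeded the intensity for testing, the 3 basal ones and 30 min replicate a, so this probe set was tested mainly because its basal arrays were bright. The dimmer Rock1 probe set, which exceeded that intensity on 3 of the 9 arrays, differed by -0.99 (limma adjusted p = 0.0945). The calls of Rock1 and Nfatc3 were lost without any single basal array and without 60 min replicate b or replicate c, and that of Ppp3ca without 0 min replicates a (0.0668) or b (0.0600), as limma adjusted p. Nfatc3 was also not called without 30 min replicate b or replicate c, nor after quantile normalization (0.0649), scaling to the 75th percentile (0.0540) or cyclic loess (0.0588).

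**Figure D5:**
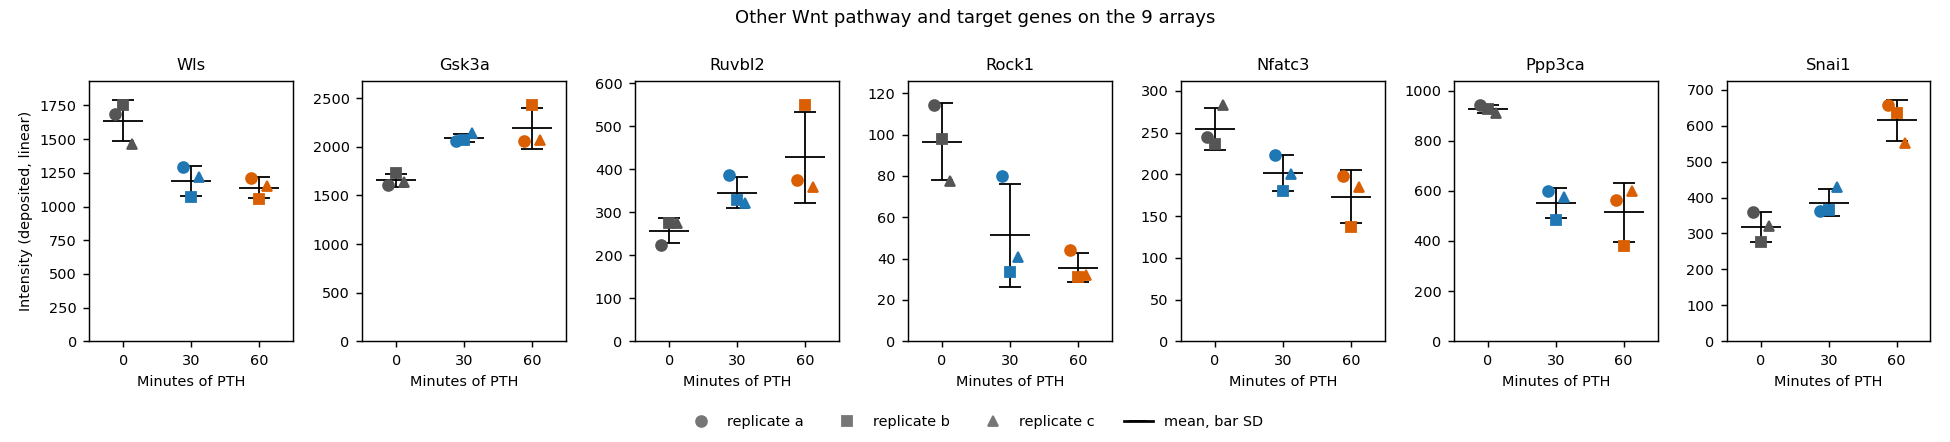
Deposited intensity (linear axes from 0) on each of the 9 arrays, by minutes of PTH, with the mean and SD of 3 arrays. Shown are the pathway genes outside the 49 members that were called at 60 min by their brightest probe set, and the target gene Snai1. Wls, Rock1, Nfatc3 and Ppp3ca lie below their basal arrays at 60 min, and Gsk3a, Ruvbl2 and Snai1 lie above them.

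Of 26 measured genes known as β-catenin targets in various tissues, 21 were tested, Axin2 and Lef1 among them. At 30 min 2 were called higher and 0 lower, where 0.482% of all tested probe sets were higher and 0.457% lower. At 60 min 4 were higher and 1 lower, where 4.35% of all were higher and 8.73% lower. Their median difference was 0.09 at each time. Snai1, a transcriptional repressor, had 359.5, 275 and 321 at 0 min, 363, 365 and 429 at 30 min and 658, 635 and 551 at 60 min, so that every 60 min array exceeded every earlier one. Its difference at 60 min was 0.93 (SE 0.13, limma adjusted p = 0.00693) and stayed below the threshold of 0.05 in all 21 alternatives. Fosl1, an AP-1 subunit, rose by 1.03 at 30 min and 1.33 at 60 min (limma adjusted p = 0.0193 and 0.00299), and Plaur, the urokinase receptor, by 0.81 and 0.59 (limma adjusted p = 0.0201 at each time).

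Jun, another AP-1 subunit, rose by 0.82 at 60 min (limma adjusted p = 0.0232). Tnfrsf11b, encoding osteoprotegerin, had 376, 466 and 453 at 0 min, 364, 303 and 425 at 30 min and 237, 107 and 204 at 60 min, a difference of -1.25 at 60 min (SE 0.25, limma adjusted p = 0.0144). Axin2, Lef1, Ccnd1 and Myc, which are often used as readouts of β-catenin, were not called at either time. Ccnd1 and Myc were picked after their values were seen, and β-catenin activity itself was not tested. Axin2 and Lef1 are given above, and Ccnd1, cyclin D1, differed by 0.02 and -0.03 with 95% intervals of -0.19 to 0.23 and -0.24 to 0.18. Myc had 120.3, 126 and 104 at 0 min, 148, 189 and 210.1 at 30 min and 193, 177 and 151 at 60 min, all 6 PTH arrays above the basal arrays, with differences of 0.58 (limma adjusted p = 0.112) and 0.53 (limma adjusted p = 0.0545). Leaving out any single basal array ended the calls of Plaur at both times, of Jun and of Tnfrsf11b. The 30 min call of Plaur also ended without replicate b or replicate c of 30 min, that of Fosl1 without those or 0 min replicates a or b, and that of Jun at 60 min without 60 min replicate c. The 60 min call of Fosl1 was kept in all 21 alternatives.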

How the data were processed

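The deposited values are linear intensities of 12488 probe sets on 9 short-oligonucleotide arrays, and the way the authors summarised the probes is not given in the sources used here. The authors' intensities have nearly equal means on all arrays, as given in the report, and were used as deposited. They were converted to log2(intensity + 11.8), and 66 control probe sets were left out. Limma 3.58.1 (R 4.3.3; lmFit, eBayes with a trend) estimated 1 mean for each of the 3 times from the 9 arrays together, with 6 residual and 4.68 prior degrees of freedom. P-values were adjusted over all 7884 tested probe sets. Symbols came from the platform annotation, in which 10833 probe sets had 1 symbol, 396 several and 1193 none, and the Entrez identifiers of all 49 members were in the GRCm38.p6 gene table.

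Values on every array are given for each called member, for the 3 largest differences of each role at either time and for the 2 brightest of each role. From each list up to 4 called genes each way are named, or the 2 brightest where none was called. Dvl1, Rspo2, Plcb1, Ccnd1 and Myc are named outside this rule and after their values were seen, as are the untested probe sets given in full. Members, lists and tests were chosen with earlier results of these data known. The fit was tested on simulated arrays, matplotlib 3.10.9 (Python 3.11.15) drew the figures, and the alternatives are given with their effects at the end.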

Additional observations from a re-analysis of the deposited data

How the results depend on the processing

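Against 0 min the deposited values gave 1 called member at 30 min and 3 at 60 min, 0 between 60 and 30 min and 1 by the F test. Without a filter the counts at 30 and 60 min were 0 and 0, and without a variance trend they were 0 and 0, with 0 by the F test. In the fit of only the 2 times compared 3 members were called at 30 min, Wnt1 and the dimmer Lrp6 probe set being the additions. With array weights the counts were 8 and 13 against 0 min, 10 between 60 and 30 min and 19 by the F test. Leaving out each array in turn gave 0 to 3 members at 30 min, 0 to 6 at 60 min (6 without 60 min replicate a, 0 without 60 min replicate b) and 0 to 2 by the F test. Over all probe sets the calls ranged from 16 to 2381 at 30 min (74 as reported), 77 to 2499 at 60 min (1031), 0 to 833 between the times (2) and 18 to 3360 by the F test (366), the top of each range with array weights. Under the other alternatives, counts of members stayed within 1.5 times the reported ones, except for the F test with a replicate block given below. Deviations of same-lettered arrays correlated between -0.128 and 0.304, and those of arrays with different letters between -0.266 and 0.179. Between 30 and 60 min the same-letter values were 0.304 for replicate a, 0.251 for b and 0.022 for c. Whether the replicate letters pair the arrays was not tested. With the letter as a replicate block the F test called 3 members. Over all probe sets that block gave 259, 1446 and 1 calls for the pairs of times and 834 by the F test. Over all probe sets at 60 min, 343 were higher and 688 lower, against 383 and 623 (quantile), 499 and 652 (75th percentile) and 227 and 622 (cyclic loess), and at 30 min 38 and 36, against 52 and 90 (quantile), 40 and 61 (75th percentile) and 32 and 60 (cyclic loess). Members whose sign depended on the scaling numbered 6 at 30 min and 2 at 60 min, none of them past the threshold there. Sfrp2 kept its call in 14 of 21 alternatives at 30 min (limma adjusted p = 0.000524 to 0.194) and 12 of 21 at 60 min (0.0249 to 0.142), Csnk1g2 in 11 of 21 (0.00425 to 0.128) and Lrp6 in 5 of 20 (0.00505 to 0.138), the dimmer Lrp6 probe set being too dim to test with the filter at the 60th percentile. No difference of these calls changed sign in any of the alternatives run, and the cause of the lost calls was not tested. With 3 arrays per time, the number of arrays limits the precision, and dim probe sets near the filter have the widest intervals.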
